A study of Mus musculus with 22 samples.

Results

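The genes of major histocompatibility complex (MHC) class II antigen presentation were followed in inguinal white adipose tissue (IWAT) next to a breast tumor. They were chosen by name: H2-Aa, H2-Ab1, H2-Eb1, Cd74, Ciita, H2-DMa and H2-DMb1, 7 of the 23420 gene symbols in the count table. All 7 passed the filter on low counts. RNA-sequencing had been done on 22 libraries from 11 female wildtype C57Bl/6 mice, with both inguinal pads of each mouse. The 5 lean mice had eaten chow and the 6 obese mice a high fat diet, for 16 weeks before tumor cell injection. The left pad had received E0771 cells, a breast cancer line from the same strain, in Matrigel, and the right pad PBS and Matrigel alone, so that control IWAT was also injected tissue and came from a tumor-bearing animal. Both pads were taken 2 weeks later, and the study's methods state that the inguinal lymph node and a border of fat around the tumor were removed. The 7 adipocyte markers checked, such as Adipoq and Plin1, had counts in every library.

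MHC class II molecules are pairs of an alpha and a beta chain that show peptides from engulfed material to CD4+ T cells. H2-Aa and H2-Ab1 encode the chains of I-A, and H2-Eb1 encodes the beta chain of I-E, whose alpha chain gene is defective in C57BL/6 mice. Cd74, the invariant chain, occupies the groove until the endosome, where H2-DM, a pair of H2-DMa and H2-DMb1 products, exchanges its remnant for peptide. Ciita is the coactivator that switches the whole set on, and B cells, dendritic cells and macrophages are its usual sources, so that in whole fat more such cells and more RNA per cell cannot be told apart.

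Ciita acts through a complex of RFX and NF-Y proteins on the X and Y boxes of these promoters, and the promoters of the 3 genes in which both motifs were found are shown. RefSeq sequences (GRCm38.p6) were matched for 4 of the 7 genes, and those of H2-Ab1, Cd74 and Ciita are not analysed here. Capitals mark GNAACT, letters of the X box, and TGATTGG, letters of the Y box, in the 300 bases from 250 before to 50 after the start; both strands were searched and the letters were chosen after these promoters had been seen.
H2-Aa: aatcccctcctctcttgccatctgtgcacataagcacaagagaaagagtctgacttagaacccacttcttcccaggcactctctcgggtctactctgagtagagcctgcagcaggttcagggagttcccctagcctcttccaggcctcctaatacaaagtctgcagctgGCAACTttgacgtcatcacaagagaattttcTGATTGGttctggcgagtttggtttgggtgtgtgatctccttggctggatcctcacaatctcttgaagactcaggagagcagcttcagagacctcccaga
H2-Eb1: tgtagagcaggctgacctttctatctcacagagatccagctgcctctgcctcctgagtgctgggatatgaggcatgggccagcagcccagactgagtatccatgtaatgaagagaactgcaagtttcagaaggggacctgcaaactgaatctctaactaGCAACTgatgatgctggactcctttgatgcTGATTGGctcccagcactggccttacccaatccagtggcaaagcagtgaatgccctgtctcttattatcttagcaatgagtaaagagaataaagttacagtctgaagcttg
H2-DMb1: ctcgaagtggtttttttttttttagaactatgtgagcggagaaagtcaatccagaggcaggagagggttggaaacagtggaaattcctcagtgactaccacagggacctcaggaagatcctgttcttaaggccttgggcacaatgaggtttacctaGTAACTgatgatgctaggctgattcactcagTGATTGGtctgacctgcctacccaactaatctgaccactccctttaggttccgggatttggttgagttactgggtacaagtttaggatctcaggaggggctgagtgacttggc
The sequence of H2-Aa is chr17:34287774-34288073 on the minus strand, that of H2-Eb1 chr17:34305617-34305916 on the plus strand and that of H2-DMb1 chr17:34152941-34153240 on the plus strand. From X start to Y start there were 31 bases in H2-Aa, 30 in H2-Eb1 and 31 in H2-DMb1. Such a pair on one strand, with starts at most 50 bases apart, was in 0.365% of 32851 promoters, while GNAACT alone was in 42.8% and TGATTGG alone in 7.82%. No pair was found at either RefSeq start of H2-DMa that was searched, in chr17:34122582-34122881 and chr17:34125268-34125567. Other possible starts of H2-DMa, such as the GENCODE gene start at 34119541, were not searched. A match describes letters only.

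Libraries differed in genes of lymphoid tissue before any comparison of groups was made. Levels are in CPM, the counts of a gene relative to the total of its library, after scaling between libraries. The summed CPM of 14 B cell genes had a median of 36.8 over the 22 libraries and was over 3 times that in 4 of them. It was 1355 in control IWAT of obese mouse 1, 1200.0 in control IWAT of obese mouse 3, 329 in tumor-associated IWAT of obese mouse 3 and 144 in control IWAT of lean mouse 2. In lean mice the sums ran from 19.4 to 144 for control and 28.6 to 56.9 for tumor-associated IWAT, and in obese mice from 16.3 to 1355 and from 25.3 to 329. Glycam1, a mucin of lymph node vessels, had 1650, 2710 and 62 counts in the first 3 of those 4 libraries and at most 7 in any other. The summed CPM of the 7 MHC class II genes was 2612, 2649, 2340 and 1843 in the same 4 libraries and between 654 and 1999 in the remaining 18. Results are therefore given with all 22 libraries and with the 18. B cells are themselves a source of class II, so leaving out libraries by their B cell genes is not independent of the 7 genes. Whether lymph node tissue accounts for the high values was not tested.

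**Figure D1:**
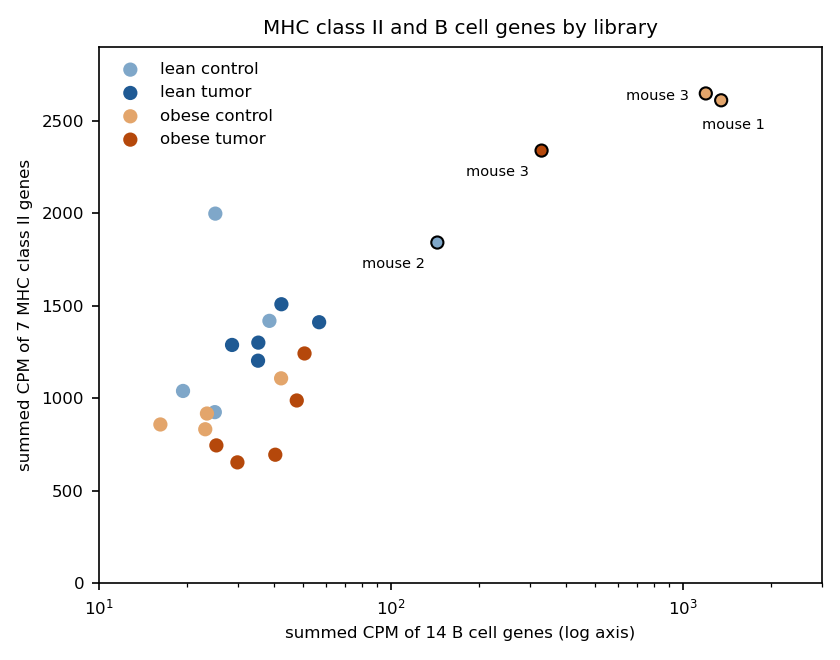
Summed CPM of the 7 MHC class II genes (vertical axis, from 0) against summed CPM of 14 B cell genes (horizontal log axis), 1 point for each of 22 libraries, coloured by group. Black outlines mark the 4 libraries over 3 times the median B cell sum; the 3 from obese mice lie above every other library, at 2340 to 2649.

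In lean mice, the tumor was not accompanied by a detectable change of any of the 7 genes. H2-Aa was at 346, 460.4, 249.9, 219 and 468 CPM in control IWAT of mice 0, 2, 3, 6 and 9, and at 317, 340.4, 388, 296 and 318 CPM in tumor-associated IWAT of the same mice. The 5 tumor-associated values lay inside the range of the control values. Cd74 was at 547, 672, 406, 369 and 755 CPM in control and at 499, 569.8, 580.3, 488 and 506 CPM in tumor-associated IWAT, again with the control libraries the more scattered. Both genes were lower in the tumor-associated pad of 3 mice and higher in 2. By edgeR's quasi-likelihood test over all 22 libraries, 0 of 7 genes were called in either direction, 0 of 7 had an unadjusted p under 0.05 and DESeq2 called 0 of 7, while edgeR called 4.18% of the 14458 genes tested. The log2 fold changes ran from -0.44 for Ciita (SE 0.61) to 0.16 for H2-DMa (SE 0.39). For H2-Aa the 95% interval was -0.84 to 0.69 on the log2 scale, or -0.43 to 0.49 with 18 libraries, so that changes within those intervals were not excluded.

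**Figure D2:**
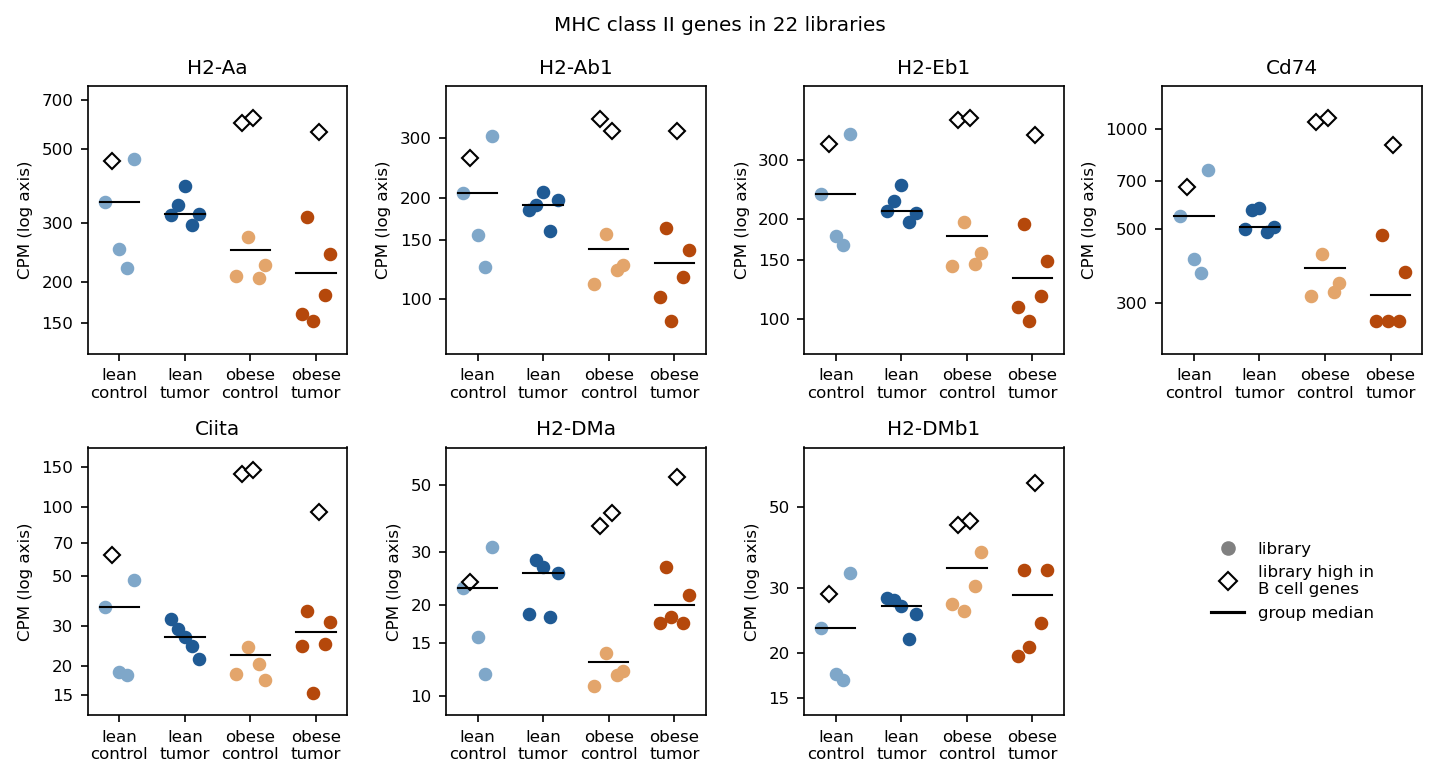
CPM (log axis) of each of the 7 genes by group (lean and obese mice, control and tumor-associated pads), 1 symbol for each of 22 libraries; bars are group medians and open diamonds the 4 libraries high in B cell genes. The diamonds of obese mice lie above all other obese libraries for every gene, and among the remaining obese libraries every tumor-associated value of H2-DMa lies above the control values.

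In obese mice, the I-A, I-E and invariant chain genes were lower on average next to the tumor, without passing the main test over 22 libraries, which does not pair the pads. H2-Eb1 had a lowest, median and highest value of 144, 177 and 400.5 CPM in control and 98.4, 133 and 356 CPM in tumor-associated IWAT. It was lower in the tumor-associated pad of 6 of 6 mice, by a mean of 0.50 (SD 0.41) on the log2 scale. Cd74 ran over 314, 382 and 1082 CPM in control and 263, 317 and 899 CPM in tumor-associated IWAT and was lower in 5 of 6 mice. The fitted log2 fold changes were -0.49 for H2-Eb1 (SE 0.32, 95% interval -1.16 to 0.18) and -0.48 for Cd74 (SE 0.35, -1.21 to 0.25). H2-Aa, at -0.40 (SE 0.34), and H2-Ab1, at -0.35 (SE 0.32), were close to them. edgeR called 0 of the 7 genes where it called 54.5% of all genes tested; 0 of 7 had an unadjusted p under 0.05, and DESeq2 called 0 of 7. With the mouse as a block, which pairs the pads, H2-Eb1 was called lower in edgeR (log2 fold change -0.50, SE 0.18, adjusted p = 0.0328). Cd74 then had an adjusted p of 0.0559, and 1 of the 7 was called lower, against 27.6% of all genes. Unadjusted p in this paired edgeR fit were 0.0159 for H2-Eb1, 0.0305 for Cd74 and 0.048 for H2-Aa, and above 0.05 for the other genes. Without tumor-associated IWAT of mouse 3, H2-Aa, H2-Eb1 and Cd74 were called lower, at -0.76, -0.85 and -0.85, in a fit that kept the 2 control pads high in B cell genes and called 27.4% of all genes lower. With the 18 libraries these same genes came to -0.13 (95% interval -0.59 to 0.33), -0.29 (-0.74 to 0.16) and -0.11 (-0.54 to 0.33) and were not called.

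H2-DMa, the alpha chain of the peptide exchange factor, went the other way in obese mice. Among the libraries not high in B cell genes it was at 10.8, 13.9, 11.7 and 12.0 CPM in control IWAT of mice 0, 2, 4 and 8 and at 17.5, 26.8, 18.2, 17.4 and 21.7 CPM in tumor-associated IWAT of mice 0, 1, 2, 4 and 8. These 2 sets of libraries did not overlap, while with all 22 libraries the 2 groups did. The share of all genes without such an overlap was not counted. The log2 fold change was 0.73 (SE 0.23, 95% interval 0.24 to 1.23, edgeR adjusted p = 0.0151), in a fit that called 26.8% of all genes higher. With all 22 libraries it was 0.30 (SE 0.36) and not called. The control pads of mice 1 and 3 then entered at 36.8 and 40.6 CPM and the tumor-associated pad of mouse 3 at 53.5 CPM. The tumor-associated pad was higher in 5 of 6 mice. H2-DMa shares 360 exonic bases with Brd2, a bromodomain gene on the opposite strand, and the strand setting of the counting is not given in the sources used here. Brd2 also rose in obese tumor-associated IWAT, by 0.41 with 18 libraries (SE 0.12, edgeR adjusted p = 0.0101) and by 0.35 with 22 (SE 0.10, adjusted p = 0.00598); its part in the counts of H2-DMa was not tested. H2-DMb1, the partner chain, was at -0.16 (SE 0.23) with 22 libraries and -0.21 (SE 0.20) with 18, not called in either.

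Because a ratio of counts within a library does not depend on the scaling, H2-DMa was also set against H2-Aa, a ratio chosen after the values were seen and given as a description. H2-DMa over H2-Aa was 0.0510 to 0.0657 in the 6 obese control and 0.0858 to 0.120 in the 6 obese tumor-associated libraries, with no overlap and none left out. The share of all genes whose ratio to H2-Aa had no overlap was not counted. The ratio was higher next to the tumor in 6 of 6 obese mice, by a mean log2 difference of 0.80 (SD 0.30, lowest 0.48), and in 4 of 5 lean mice, by 0.22 (SD 0.31). Both genes entered it: in obese mice the mean log2 difference was 0.40 (SD 0.45) for H2-DMa and -0.39 (SD 0.42) for H2-Aa. The ratio of H2-DMb1 to H2-Aa was higher next to the tumor in 3 of 6 obese and 3 of 5 lean mice.

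Between diets, the I-A, I-E and invariant chain genes were lower next to the tumor of obese mice than of lean mice once the libraries high in B cell genes were left out. In lean mice H2-Eb1 was at 210.4, 226, 252, 196 and 208 CPM and in obese mice at 109, 192, 98.4, 356, 117 and 149 CPM, for mice 0, 1, 2, 3, 4 and 8. Only obese mouse 3, with its high B cell genes, stood above the lean libraries; the other 5 obese libraries all lay below them. Cd74 showed the same order, at 488 to 580.3 CPM in lean and 263 to 480.4 CPM in obese libraries without mouse 3. How many of all genes had such an order was not counted. For H2-Aa and H2-Ab1 the value of obese mouse 1 lay inside the lean range. With the 18 libraries, 4 of 7 genes were called lower in obese mice, in a fit that called 22.7% of all genes lower. From these groups the filter left out only obese mouse 3, the tumor-associated library highest in class II genes, and no lean library. B cells carry class II themselves, so the filter was not independent of these genes, and it lowered the obese mean. The 4 genes called kept nearly fixed proportions to each other, so their calls are not separate results. The log2 fold changes were -0.72 for H2-Eb1 (SE 0.20, edgeR adjusted p = 0.00848), -0.69 for Cd74 (SE 0.20, adjusted p = 0.00841), -0.66 for H2-Aa (SE 0.21, adjusted p = 0.0149) and -0.63 for H2-Ab1 (SE 0.20, adjusted p = 0.0182), or folds of 0.609 to 0.647. Ciita, at -0.03 (95% interval -0.56 to 0.50), H2-DMa, at -0.21 (-0.66 to 0.24), and H2-DMb1, at 0.02 (-0.39 to 0.42), were not called. With all 22 libraries 0 of 7 were called by edgeR, against 47.0% of all genes, 0 of 7 had an unadjusted p under 0.05 and DESeq2 called 0 of 7; H2-Eb1 was then at -0.36 (95% interval -1.06 to 0.34). Marker genes of other cells also differed between these groups in the 18 libraries. All 6 mammary epithelial genes were called lower in obese mice (median -2.58 on the log2 scale), with summed levels, over all libraries, of 708 to 1382 CPM in lean and 163 to 369.6 CPM in obese mice. Of 7 adipocyte genes 1 was called higher and 2 lower, of 12 macrophage genes 4 were called higher (median 0.40), of 11 dendritic cell genes 2 were called higher (median -0.15), and of 6 B cell genes tested 1 was called lower, in a fit that called 26.0% of all genes higher. The part of these cells in the class II values was not tested.

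In control IWAT the values for obese against lean changed sign for 3 of the 7 genes, H2-Aa, Cd74 and Ciita, when the libraries high in B cell genes were left out. Obese control libraries had 208, 598, 272, 618, 205 and 224 CPM of H2-Aa in mice 0, 1, 2, 3, 4 and 8. The 2 with high B cell genes were above every lean control library, which reached 468 CPM, and the other 4 lay within or below the lean range, which began at 219 CPM. With all 22 libraries the log2 fold change of obese over lean was 0.02 (SE 0.35, 95% interval -0.71 to 0.75). Here edgeR called 0 of 7 genes and 17.1% of all genes; 1 of 7, H2-DMb1, had an unadjusted p under 0.05 (log2 fold change 0.56, SE 0.26, adjusted p = 0.127), and DESeq2 called 0 of 7. With the 18 libraries 6 of the 7 genes were lower in obese mice, from -0.51 for H2-Aa to -0.76 for H2-DMa, and 0 of 7 were called where edgeR called 8.79% of all genes; 5 of 7 had an unadjusted p under 0.05 and the lowest adjusted p was 0.0633, for H2-DMa. When both pads of obese mice 1 and 3 were left out, an alternative added after the data were seen, 4 of 7 were called lower in edgeR: Cd74 at -0.65 (adjusted p = 0.0258), H2-DMa at -0.79 (adjusted p = 0.0241), H2-Ab1 at -0.70 (adjusted p = 0.0333) and H2-Eb1 at -0.66 (adjusted p = 0.0378), against 4.96% of all genes called lower. That fit left out obese libraries only and kept the control pad of lean mouse 2, which was high in B cell genes. H2-DMb1 alone had a positive value with 18 libraries, 0.41 (SE 0.22, not called), with 27.3, 26.03, 30.5 and 37.7 CPM in the 4 obese and 16.9 to 33.1 CPM in the 4 lean control libraries. H2-DMb1 lies beside a close copy, H2-DMb2, and how reads shared by both were counted is not given in the sources used here, so its values are uncertain.

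**Figure D3:**
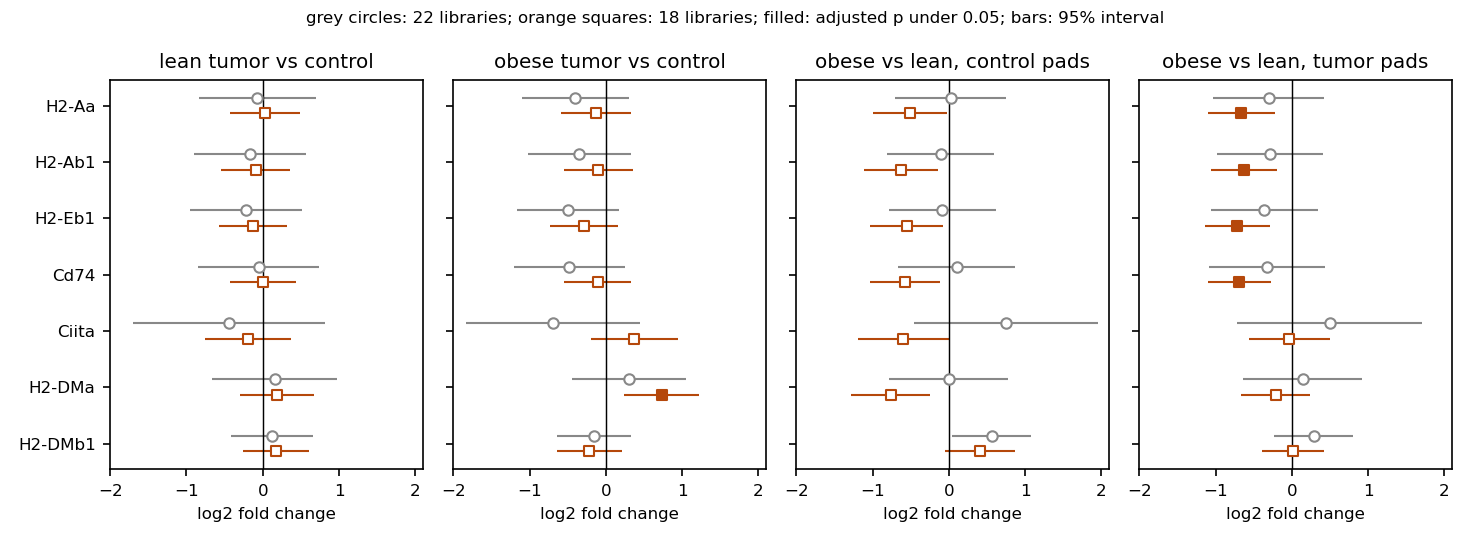
Fitted log2 fold changes (horizontal axis) of the 7 genes in 4 comparisons, with 95% intervals. Grey circles are fits with 22 libraries and orange squares fits with the 18 not high in B cell genes; filled symbols passed an adjusted p of 0.05, which 4 genes did in tumor-associated IWAT of obese against lean mice and H2-DMa in obese tumor-associated against control IWAT.

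Whether the tumor change itself differed with diet was tested as the obese minus the lean log2 fold change. With 22 libraries the differences ran from -0.42 for Cd74 (95% interval -1.50 to 0.66) to 0.14 for H2-DMa (-0.96 to 1.25); edgeR called 0 of 7 genes and 4.92% of all genes, 0 of 7 had an unadjusted p under 0.05, and DESeq2 called 0 of 7. With 18 libraries the difference for H2-DMa was 0.55 (SE 0.33, 95% interval -0.14 to 1.24) and that for Ciita 0.57 (SE 0.38, -0.23 to 1.37), neither called. That fit called only 0.0277% of all genes, so the lack of a call says little. The rise of H2-DMa next to the tumor was thus not shown to differ between obese and lean mice.

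Ciita, the coactivator, was at 140.2 and 147 CPM in control IWAT of obese mice 1 and 3 and at 95.8 CPM in tumor-associated IWAT of obese mouse 3, against 15.3 to 61.6 CPM elsewhere. Its obese tumor change went from -0.69 (SE 0.55) with 22 libraries to 0.37 (SE 0.27) with 18, and its diet difference in control IWAT from 0.75 (SE 0.60) to -0.60 (SE 0.28); none of the 4 values was called. It shares 329 exonic bases with Dexi on the opposite strand, which was not called in any of these comparisons.

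The genes for the class II chains and the invariant chain kept nearly fixed proportions to each other. Per kilobase of the longest coding transcript, the mean CPM over 22 libraries was highest for Cd74, at 369.8, followed by H2-Aa at 288, H2-Ab1 at 153, H2-Eb1 at 131, H2-DMb1 at 21.1, H2-DMa at 11.4 and Ciita at 6.91. Within a library, H2-Aa over H2-Ab1 ran from 1.53 to 1.96 and Cd74 over H2-Aa from 1.44 to 1.76 over all 22 libraries, while the CPM of H2-Aa itself ran from 152 to 618. H2-Aa over H2-Eb1 had a narrow range too, 1.30 to 1.62, and was higher in the tumor-associated pad of 5 of 5 lean and 6 of 6 obese mice, by mean log2 differences of 0.15 (SD 0.07) and 0.11 (SD 0.07). The ratio of Ciita to H2-Aa varied more, from 0.0675 to 0.238, the highest value being in a library high in B cell genes. Over the 18 libraries, with each group's mean removed, log2 CPM of H2-Aa, H2-Ab1, H2-Eb1 and Cd74 had pairwise correlations of 0.94 to 0.99, those with H2-DMa 0.88 to 0.90, those with Ciita 0.84 to 0.88 and those with H2-DMb1 0.81 to 0.82; these libraries share depth, tissue makeup and mice, and the values are descriptions.

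Among other genes of class II regulation and handling and of costimulation, counted as 1 list, several passed the test next to the tumor. Of 21 listed, 19 were tested. Over 22 libraries edgeR called 3 of the 19 higher and 0 lower next to the tumor in lean mice, against 3.27% of all genes higher and 0.913% lower. In obese mice 7 of 19 were called higher and 4 lower, against 26.8% and 27.7% of all genes, so that both counts lay near the share over all genes; the medians were 0.08 and 0.31 on the log2 scale, against 0.01 and -0.02 for all genes tested. With the mouse as a block, 6 of 19 were called higher in lean mice, against 3.48% of all genes, March1 (1.11, SE 0.25, edgeR adjusted p = 0.0287), Ifi30 and Cd86 being added. With the 18 libraries 5 of 18 tested were called higher in lean mice, against 2.37% of all genes, and 9 higher and 1 lower in obese mice, against 26.8% and 26.4%. Endosomal enzymes were among the genes that rose. Lgmn, an asparaginyl endopeptidase that trims antigens, rose by 1.64 in lean mice (SE 0.25, edgeR adjusted p = 0.000705) and 1.90 in obese mice (SE 0.23, adjusted p = 5.77e-06). Ctss, the protease that degrades the invariant chain in these cells, rose by 1.16 (SE 0.28, adjusted p = 0.0233) and 1.42 (SE 0.26, adjusted p = 0.000214). Ifi30, a thiol reductase of the endosome, was at 0.92 in lean mice (SE 0.28, adjusted p = 0.0756; 0.91 and adjusted p = 0.0383 with the block) and rose by 1.46 in obese mice (SE 0.26, adjusted p = 0.000153), and Ctsl rose by 0.53 in obese mice (SE 0.16, adjusted p = 0.00871; 0.38 and not called with 18 libraries). Cd80, a costimulatory ligand, rose by 1.29 and 1.35 (adjusted p = 0.0368 and 0.00119). Cd40, a costimulatory receptor, rose in obese mice by 1.20 (SE 0.50, adjusted p = 0.0487). With the 18 libraries Ifi30 was called in lean mice too (1.03, SE 0.24, adjusted p = 0.0309), Cd40 came to 2.47 in obese mice (SE 0.46, adjusted p = 0.000625), and Cd86, a ligand of the same family as Cd80, was called higher in lean (1.18, adjusted p = 0.014) and obese mice (1.02, adjusted p = 0.00223). With 22 libraries Cd86 was called only with the block, at 1.04 in lean (adjusted p = 0.0382) and 0.63 in obese mice (adjusted p = 0.0325). The median CPM of Ctss went from 72.2 in the control pads to 186 next to the tumor in lean mice, and from 172 to 523 in obese mice. Within libraries, Ctss over H2-Aa was higher next to the tumor in 5 of 5 lean and 6 of 6 obese mice, by mean log2 differences of 1.24 (SD 0.56) and 1.81 (SD 0.27).

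**Figure D4:**
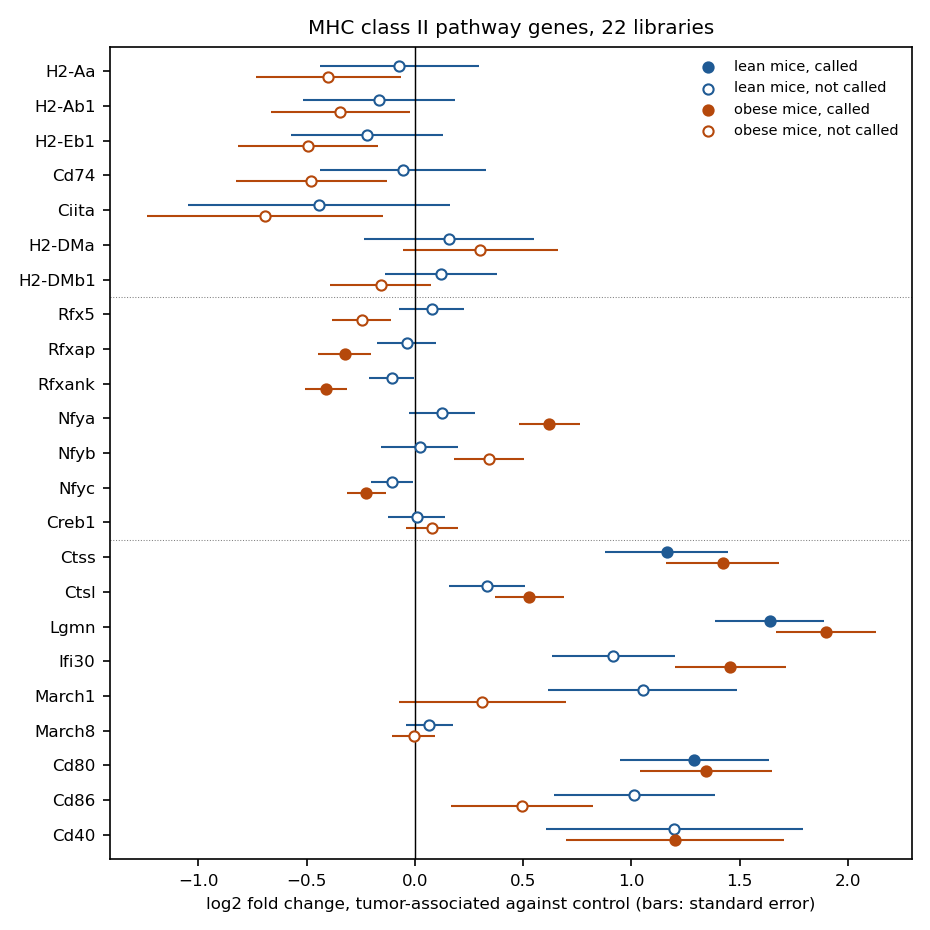
Log2 fold change next to the tumor over the control pad (horizontal axis, bars are standard errors) for the 7 genes and 16 other genes of the pathway, fitted over 22 libraries; blue is lean, orange obese, filled symbols passed an adjusted p of 0.05. H2-Oa, H2-Ob and H2-DMb2 were tested but are not drawn, and H2-Oa was called lower in obese mice. The 7 genes at the top lie near or below 0 apart from H2-DMa and, in lean mice, H2-DMb1, while Lgmn, Ctss and Cd80 lie between 1.16 and 1.90 in both diets.

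Of the subunits of the RFX and NF-Y complexes, 3 were called lower and 1 higher next to the tumor in obese mice. Rfx5 and Nfyb were not called. Of all genes, 27.7% were called lower and 26.8% higher in this comparison. In obese mice Rfxank fell by 0.41 (SE 0.10, edgeR adjusted p = 0.00147), Rfxap by 0.32 (adjusted p = 0.0311) and Nfyc by 0.22 (adjusted p = 0.0406), while Nfya rose by 0.62 (SE 0.14, adjusted p = 0.00111); with 18 libraries Rfxap and Nfyc were no longer called. Between diets Rfxank was lower in obese mice in both control IWAT (-0.37, SE 0.10, edgeR adjusted p = 0.014) and tumor-associated IWAT (-0.68, SE 0.10, adjusted p = 4.01e-05). With 18 libraries Rfxank was no longer called lower in control IWAT. Of the 19 pathway genes, 7 were called higher and 1 lower in obese than in lean control IWAT, against 9.54% and 7.53% of all genes. In tumor-associated IWAT, with 22 libraries, 8 of the 19 were called higher and 3 lower in obese mice, against 24.7% and 22.4% of all genes. Ctss (1.08 and 1.33) and Ctsl (1.12 and 1.32) were among the higher ones in both control and tumor-associated IWAT with 22 libraries.

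H2-Oa, H2-Ob and H2-DMb2 had their highest values in libraries high in B cell genes. H2-Ob, whose product holds back H2-DM and is known from B cells, reached 113 CPM in obese control and 31.7 CPM in obese tumor-associated IWAT, and at most 4.82 CPM in the 18 libraries not high in B cell genes. H2-DMb2, the close copy of H2-DMb1, reached 54.0 and 18.4 CPM, and at most 4.08 CPM in those 18. H2-Oa, the partner of H2-Ob, reached 19.1 and 5.29 CPM, and at most 1.53 CPM in those 18. H2-Oa was called lower next to the tumor in obese mice with 22 libraries (log2 fold change -2.22, SE 0.93, edgeR adjusted p = 0.0499), was not with the mouse as a block (-1.47, SE 0.68, adjusted p = 0.0847) and did not pass the filter on low counts with 18. H2-Ea-ps, the I-E alpha pseudogene, had no count in any of the 22 libraries, where 0 counts allow up to 3, or 0.349 to 0.521 CPM before scaling; this limit covers counting error only.

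Among genes of the response to interferon gamma, an inducer of Ciita, 8 of 9 were tested. Ifng itself had at most 7 counts in any library and was not tested. Next to the tumor 2 of 8 were called higher in lean mice, where 3.27% of all genes were. In obese mice 3 were called higher and 1 lower, against 26.8% and 27.7% of all genes. Socs1, a feedback inhibitor of the response, rose by 1.19 in obese mice (SE 0.29, edgeR adjusted p = 0.00212). Of the receptor chains, Ifngr2 rose by 0.59 in lean (adjusted p = 0.00708) and 0.26 in obese mice (adjusted p = 0.0443), and Ifngr1 fell by 0.59 in obese mice (SE 0.15, adjusted p = 0.00298). Between diets 3 were called higher in obese control IWAT, against 9.54% of all genes, and 1 in obese tumor-associated IWAT, against 24.7%, and 0 lower in either by edgeR.

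Marker genes of the cells that can carry class II were counted in the same fits, over 22 libraries unless stated. Of all genes, 3.27% were called higher and 0.913% lower next to the tumor in lean mice, and 26.8% and 27.7% in obese mice. The B cell, T cell, plasma cell and dendritic cell counts in obese mice with 22 libraries were at most near those shares. Of 12 macrophage genes, 8 were called higher next to the tumor in lean and 9 in obese mice, with summed levels of 853 to 1767 CPM in control and 1857 to 3953 CPM in tumor-associated pads of lean mice, and of 1341 to 1765 and 1780.5 to 5223 CPM in those of obese mice. Csf1r over H2-Aa within a library was higher next to the tumor in 5 of 5 lean and 6 of 6 obese mice, by mean log2 differences of 1.04 (SD 0.52) and 1.08 (SD 0.63). Of 11 dendritic cell genes, 0 were called in lean mice by edgeR and 1 was called higher and 1 lower in obese mice; with 18 libraries 1 was called higher in lean mice, and 3 were called higher and 1 lower in obese mice (median 0.66). Of 13 B cell genes tested, 0 were called in lean mice and 4, all lower, in obese mice; with 18 libraries 6 were tested and 1 was called higher in obese mice. Of 11 T cell genes, 0 were called in lean mice and 2, both lower, in obese mice with 22 libraries, against 8 higher and 1 lower with 18. All 7 adipocyte genes were called lower next to the tumor in obese mice and 0 in lean mice, and 5 of 6 mammary epithelial genes were lower in obese and 0 in lean mice. Plasma cell genes, 4 listed and 3 tested, gave 1 lower call in obese mice, and of 8 lymph node genes 5 were tested, with 2 lower calls in obese mice. With the mouse as a block the lower calls in obese mice were 6 for B cell, 1 for T cell, 0 for plasma cell and 0 for lymph node genes. The part of these cell types in the class II values was not tested.

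Over the 18 libraries, with each group's mean removed, the mean log2 CPM of the 7 genes had a Pearson correlation of 0.79 (Spearman 0.72) with that of the dendritic cell genes, 0.61 (0.63) with macrophage, 0.55 (0.54) with plasma cell, 0.40 (0.42) with B cell and 0.36 (0.28) with T cell genes, as a description. Without the 2 libraries farthest from the median of each score the Pearson values were 0.70, 0.71, 0.52, 0.34 and 0.17. Outside all lists, the genes most like the 7 over the 22 libraries, by Pearson correlation of log2 CPM with their mean z-score, were BC035044 (0.90), Tlr11 (0.89), Zfp831 (0.87), Cd7 (0.86) and Cd226 (0.86). Over the 18 libraries the leading 5 were others, Dapp1 (0.83), Slc37a1 (0.82), Zfp953 (0.82), AA987161 (0.81) and Polg2 (0.81).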

How the data were processed

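RNA of 22 inguinal pads had been depleted of ribosomal RNA and sequenced. After filtering and trimming by prinseq, the authors aligned reads to the mm10 genome using STAR 2.4.0f, and they deposited raw HTSeq counts per gene symbol, without normalization; strand setting and annotation are not given in the sources used here. The 5 lines that name no gene, of which reads on no gene were 38.5% to 48.8%, were left out. Each library held between 5759775 and 8598108 counts on genes (median 6953882), so that 1 count was worth 0.116 to 0.174 CPM before scaling.

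The test was edgeR's quasi-likelihood test (version 4.0.16, R 4.3.3) with TMM factors, on the 14458 genes that passed its default filter by group, with Benjamini-Hochberg adjustment, a threshold of 0.05, and all 4 groups in one fit and 5 contrasts; the comparisons share libraries. This main fit did not pair the pads of a mouse. CPM were scaled by TMM, and their log2 took a prior count of 2. DESeq2 1.42.0, other scalings and filters, the mouse as block, and fits without libraries over 3 times the median B cell sum were alternatives; leaving out both pads of obese mice 1 and 3 was added after seeing the data.

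The 2 pads of a number come from 1 mouse. Their deviations from group means had a median correlation of 0.508 in lean (over 0.1 in 5 of 5) and 0.168 in obese mice (4 of 6), against -0.12 and -0.07 between mice. Within groups, every 2 libraries differed by more than counting noise (smallest chi-square per degree of freedom 5.95). Each library is 1 pad of 1 animal.

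The 7 genes, the marker and pathway lists and the tests were chosen with earlier results of these data known. All 7 genes and the genes called in the pathway and interferon gamma lists are named, except that some values are not reported here; genes most alike are the 5 with the highest correlation. Lengths are of GENCODE transcripts and promoters of RefSeq.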

Additional observations from a re-analysis of the deposited data

Results flagged for a closer look

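Tumor-associated IWAT of obese mouse 3 stood apart from the other 5 libraries of its group for 6 of the 7 genes, by a gap that took up more of the group's range than Dixon's limit at 95% allows. It held 899 CPM of Cd74, with the next library at 480.4, 316 CPM of H2-Ab1, with the next at 163, and 356 CPM of H2-Eb1, with the next at 192. It held 95.8 CPM of Ciita against 35.2, 53.5 CPM of H2-DMa against 26.8 and 58.3 CPM of H2-DMb1 against 33.8. H2-Aa, at 562 CPM, was not past the limit. The same library had 329 CPM of summed B cell genes, 62 counts of Glycam1 and 4981 CPM of summed macrophage genes, against at most 50.7 CPM, 0 counts and 5223 CPM in the other 5 libraries of its group. Whether lymph node tissue accounts for the gap was not tested. In all, 28 sets of libraries, 7 genes in 4 groups, were examined; chance flags about 1 in 20, and the 6 flags come from 1 library.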

How the results depend on the processing

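With DESeq2, upper-quartile scaling, no filter, at least 10 counts in every library or only the groups compared, 0 of the 7 genes were called in each of the 5 comparisons. Calls appeared with the mouse as a replicate block (1, H2-Eb1 lower, in obese tumor-associated against control IWAT, and no other call) and where B cell genes were dealt with. The block fit called 27.6% of all genes lower there. For obese tumor-associated against control IWAT, 1 of 7, H2-DMa, was called higher without the 4 libraries high in B cell genes (0.73), with the B cell score as covariate (0.77), and without both pads of obese mice 1 and 3, without a block (0.61) or with it (0.61). For obese against lean control IWAT, 3 were called lower with the covariate and 4 without mice 1 and 3. Of all genes, 6.70% and 4.96% were called lower in these fits. For tumor-associated IWAT, 4 were called lower with the 18 libraries, with the covariate and without mice 1 and 3. The shares of all genes called lower were 22.7%, 23.4% and 26.5%. Leaving out 1 library at a time gave 0 to 3 calls in obese tumor-associated against control IWAT, the 3 being without tumor-associated IWAT of mouse 3, and 0 in the other 4 comparisons. The fit with 3 calls, all lower, called 27.4% of all genes lower.

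Signs that turned belonged to values that were not called with 22 libraries; the cause was not tested. In the order 18 libraries then covariate, lean tumor values turned to 0.029 and 0.020 for H2-Aa and 0.0071 and 0.024 for Cd74. The obese tumor value of Ciita turned to 0.37 and 0.30, and to 0.24 without mice 1 and 3 (0.21 with the block), and that of H2-Ab1 to 0.0071 with the covariate. In control IWAT, obese against lean, H2-Aa turned to -0.045 with upper-quartile scaling and -0.0031 with at least 10 counts in every library, and H2-DMa to 0.014 with only the groups compared. In the order 18 libraries, covariate and without mice 1 and 3, H2-Aa turned to -0.51, -0.50 and -0.61, Cd74 to -0.58, -0.51 and -0.65, and Ciita to -0.60, -0.47 and -0.85. In tumor-associated IWAT, in that order, H2-DMa turned to -0.21, -0.092 and -0.32; Ciita turned to -0.031 with 18 libraries and -0.15 without mice 1 and 3, and H2-DMb1 to -0.080 without mice 1 and 3. For the obese minus lean tumor change, Ciita turned to 0.0047 with the block, to 0.57, 0.53 and 0.70 in that order, and to 0.53 without mice 1 and 3 with the block, and H2-Ab1 to 0.092 with the covariate.

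Leaving out 1 library at a time, lean tumor values ran from -0.20 to 0.057 for H2-Aa, -0.31 to 0.0053 for H2-Ab1 and -0.17 to 0.085 for Cd74, and the obese tumor value of H2-DMa from -0.047 to 0.60. Control IWAT values ran from -0.23 to 0.15 for H2-Aa, -0.35 to 0.063 for H2-Ab1, -0.31 to 0.068 for H2-Eb1, -0.18 to 0.24 for Cd74 and -0.32 to 0.18 for H2-DMa. Tumor-associated IWAT values ran from -0.029 to 0.66 for Ciita and -0.21 to 0.23 for H2-DMa. The differences of tumor changes ran from -0.52 to 0.062 for H2-Ab1, -0.78 to 0.24 for Ciita and -0.20 to 0.46 for H2-DMa.

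With 5 or 6 mice a group, the 95% intervals of the tumor change of H2-Aa over 22 libraries ran from -0.84 to 0.69 in lean and from -1.10 to 0.30 in obese mice (log2), and with the mouse as a block from -0.44 to 0.41 and from -0.78 to -0.0040.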
